A study of Mus musculus with 135 samples.

Results

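Transcripts of Trp53, the gene of the transcription factor p53, and of 9 genes known as p53 targets (Mdm2, Cdkn1a, Btg2, Plk2, Ccng1, Bax, Ei24, Sesn1 and Gadd45a) were followed through oocytes, early embryos and embryonic stem cells of the mouse. These 10 genes were taken by name from the 24116 gene names of 7 expression tables, and all 10 are listed in each table. RNA was measured by Smart-seq2, a full-length RNA sequencing method for small amounts of RNA, in 107 of the 135 samples. The other 28 samples were not analysed here. Expression is in FPKM, reads scaled to transcript length and library size, so levels can be compared between genes. Each value is also a share of its library, so a level moves with what the other transcripts of that library hold. The series compares embryos with and without Obox genes, which encode homeobox transcription factors abundant in mouse oocytes and 2-cell embryos, around zygotic genome activation, the start of transcription from the embryo's own genome.

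The main table holds 31 libraries. Wild-type samples were full-grown oocytes (FGO, 2 libraries), oocytes arrested in the second meiotic metaphase (MII, 2), early 2-cell (E2C, 2), late 2-cell (L2C, 3) and 4-cell embryos (4C, 3) and blastocysts (BL, 2). Obox knockout oocytes (OboxKO, 2 at FGO and 2 at MII) and maternal-zygotic Obox knockout embryos (mzKO) were set beside them. The mzKO embryos were collected at E2C (2), at L2C (3), at the time when controls reach the 4-cell stage (3) and, labelled as arrested 2-cell embryos, at the blastocyst time (2). A single library each came from mzKO embryos titled Obox157OE, Obox3OE and Obox4OE (OE, overexpression, though their treatment label is none). The first pair is labelled as blastocysts and the last as arrested 2-cell embryos. A second table compares maternal knockout embryos (mKO) with wild type (2 and 2 libraries at L2C, 1 and 1 at BL). A table named for single embryos compares Obox-- with Obox+- embryos (3 and 3 libraries at E2C, 4 and 3 at L2C). In wild-type knockdown samples, siRNA went into FGOs that gave late 2-cell parthenotes (embryos activated without sperm; siCtrl 3 libraries, siObox5 2, siObox7 2, siObox12mix 2) or into zygotes (E2C siCtrl 2 and siObox4 2; 4C siCtrl 3, siObox6 2 and siObox8 2; L2C siCtrl 1 and siObox3 1). Wild-type embryos given water (H2O) or overexpressing Obox1, Obox2, Obox3 or Obox5 had 1 library each at L2C and at BL. Mouse embryonic stem cells (mESC, grown in 2i and LIF) overexpressed GFP (5 libraries), Obox3 (4) or Obox5 (4), and in the last table wild-type and Nr5a2 knockout stem cells did so with 2 libraries a group. Every genotype is labelled with treatment none unless an injection, siRNA or overexpression is named. Whether replicates came from separate collections or cultures is not in the labels, so p-values reflect only how these libraries spread, which may be technical.

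As background, p53 protein is made all the time and is kept low by MDM2, a ubiquitin ligase that marks it for degradation. DNA damage and other stress stabilise the protein, which then raises transcription of genes that halt the cell cycle, repair DNA, restrain growth or start apoptosis. Mdm2 is itself a p53 target, which closes a negative feedback loop. Because p53 is controlled mostly as a protein, the Trp53 transcript level is not a measure of p53 activity, and every target is also transcribed by other factors.

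Obox transcripts were read first, as a check of the labels. Obox5 stood at 2187 to 2907 FPKM in wild-type MII oocytes and at 0 in OboxKO MII oocytes, and at 74 to 156 in wild-type against at most 0.0458 in mzKO late 2-cell embryos. Obox6 was lower but still present in mzKO late 2-cell embryos (59.3 to 87.4 FPKM against 219 to 471 in wild type). The targets of siObox4, siObox5, siObox6, siObox7 and siObox8 lay below every control library of their group, and the Obox3 and Obox5 stem cells of the first stem cell table held 759.8 to 2596 FPKM of Obox3 and 466.9 to 2176 of Obox5. In the same table Obox3 reached 37.2 FPKM and Obox5 19.2 in a GFP library, and Obox3 reached 99.5 in an Obox5 library. In the arrested mzKO embryos, 1 library held 59.7 FPKM of Obox3 and the other 0, so that library goes against its label for this gene. The 3 mzKO libraries labelled OE list the overexpressed genes of their labels at 0, so the overexpression could not be checked in them. As for stage, the summed level of 8 blastocyst markers was 2683 to 4151 FPKM in wild-type BL and 7.06 to 25.7 in the arrested mzKO embryos, and the 7 of 8 listed 2-cell markers summed to 72.2 to 191 in wild-type and 228 to 366 in mzKO L2C. The 2 arrested mzKO libraries stand apart. They held 3979 and 2167 genes at 1 FPKM or more, and Rn45s, the ribosomal RNA precursor, took 55.4% and 71.5% of their summed FPKM. The mzKO library labelled Obox4OE held 4062 such genes and 58762 summed FPKM, with Rn45s at 9.78%. A wild-type library labelled as a blastocyst with Obox1 goes against its label in part, with 2-cell markers summing to 673 FPKM and blastocyst markers to 412 (0.301 and 3285 in the water blastocyst) and Obox4 at 44.7 and Obox6 at 45.6.

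The 300-base windows around the annotated start sites (250 bases before and 50 after) were searched for the p53 consensus decamer, which reads the same way on both strands. A full response element is known as a pair of such decamers with a short spacer or none. RefSeq (build GRCm38.p6) gives 12 windows for the 10 genes. Of these, 8 windows of 8 genes held 9 decamers, against 8.36% of all 32851 RefSeq windows. Btg2 and Plk2 held none, nor did 1 of the windows of Cdkn1a and 1 of Sesn1. The windows of the 10 genes were 52.7% to 72% G or C. In Cdkn1a and Ccng1 a decamer directly adjoins 10 bases with 1 mismatch to the decamer, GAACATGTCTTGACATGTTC and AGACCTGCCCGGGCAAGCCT, an arrangement held by 29 of all windows (0.0883%). The word GGATTA, searched on both strands and bound by OBOX homeodomains, occurred in the Bax window and in 7.06% of all windows. A match describes letters, not a bound site. The 250 bases before the start are printed for Btg2, Plk2, Ccng1, Cdkn1a and Ei24, the genes called between mzKO embryos of the 4C time and wild-type late 2-cell embryos, with decamers in capitals.

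Btg2, chr1:134079156-134079405, minus strand: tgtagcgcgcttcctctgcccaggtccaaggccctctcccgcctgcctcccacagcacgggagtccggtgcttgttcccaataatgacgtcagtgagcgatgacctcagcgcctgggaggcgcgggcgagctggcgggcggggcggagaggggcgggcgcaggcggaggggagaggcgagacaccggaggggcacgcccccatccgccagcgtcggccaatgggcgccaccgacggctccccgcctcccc

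Plk2, chr13:110394794-110395043, plus strand: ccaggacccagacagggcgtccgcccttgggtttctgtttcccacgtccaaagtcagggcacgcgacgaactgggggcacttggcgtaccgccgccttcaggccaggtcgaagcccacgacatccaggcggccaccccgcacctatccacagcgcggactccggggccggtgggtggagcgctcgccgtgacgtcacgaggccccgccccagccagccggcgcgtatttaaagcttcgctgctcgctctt

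Ccng1, chr11:40755287-40755536, minus strand: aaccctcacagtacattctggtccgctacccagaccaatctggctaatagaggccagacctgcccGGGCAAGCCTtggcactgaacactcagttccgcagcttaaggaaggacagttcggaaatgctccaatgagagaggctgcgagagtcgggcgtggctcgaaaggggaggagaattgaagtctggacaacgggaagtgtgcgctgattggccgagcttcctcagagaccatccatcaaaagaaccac

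Cdkn1a, chr17:29090729-29090978, plus strand: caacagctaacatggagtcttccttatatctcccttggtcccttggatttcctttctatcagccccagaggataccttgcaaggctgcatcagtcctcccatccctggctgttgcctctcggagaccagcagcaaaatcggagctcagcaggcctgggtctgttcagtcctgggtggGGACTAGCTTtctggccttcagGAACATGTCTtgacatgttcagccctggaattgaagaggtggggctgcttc

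Ei24, chr9:36797335-36797584, minus strand: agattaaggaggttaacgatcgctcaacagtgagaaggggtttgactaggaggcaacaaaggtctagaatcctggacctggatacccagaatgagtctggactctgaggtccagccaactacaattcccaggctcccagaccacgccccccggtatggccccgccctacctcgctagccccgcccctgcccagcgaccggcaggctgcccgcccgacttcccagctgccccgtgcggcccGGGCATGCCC

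In these stretches the decamers start 185 bases before the start site of Ccng1, 73 and 51 bases before that of Cdkn1a, and 10 bases before that of Ei24. For Cdkn1a another annotated start site lies downstream, and its window, not printed, held no decamer.

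In wild type, Trp53 and Mdm2 were highest at MII, while the means of Cdkn1a, Ccng1, Bax, Ei24 and Sesn1 were highest at L2C or later. Btg2 was at 5.59 and 6.49 FPKM at MII and 8.84 and 5.94 at BL, with lower means between. Trp53 was at 73.6 and 4.21 FPKM in the 2 FGO libraries, 123 and 95.6 at MII, 13.2 and 2.52 at E2C, 50.1, 24.4 and 30.1 at L2C, 38.7, 46.9 and 26.3 at 4C and 24.8 and 21.7 at BL. Mdm2 followed a like course, with 42.5 and 8.87 at FGO, 102 and 67.1 at MII, 30.6 and 6.23 at E2C, 53.1, 37.4 and 35.9 at L2C, 27.7, 25.3 and 26.2 at 4C and 22.5 and 13.6 at BL. The FGO and E2C pairs each held 1 library, replicate 2, far below the other. These libraries also held fewer genes at 1 FPKM or more than replicate 1, 6045 against 8063 at FGO and 5539 against 8990 at E2C. Summed FPKM was 241417 against 308215 at FGO and 132875 against 289554 at E2C. The part of this in the changes to and from these stages was not tested. A gene is called where limma's adjusted p is under 0.05 and the log2 fold change is at least 1 in size. Between FGO and MII, 2 of the 10 genes rose, Mdm2 (log2 fold change 2.01 ± 0.74 (SE), adjusted p = 0.0447) and Btg2 (1.84 ± 0.68, adjusted p = 0.0463), against 25.1% of all genes tested called either way and 22.9% called higher. Neither call is firm: without FGO replicate 2 the change of Mdm2 was 0.94 (adjusted p = 0.577), and Btg2 lost its call with any 1 of the 4 libraries left out (1.50 to 2.18, adjusted p up to 0.288). From MII to E2C, Trp53 fell (-3.95 ± 0.94, adjusted p = 0.00328) and Mdm2 fell (-2.47 ± 0.74, adjusted p = 0.0159), while Cdkn1a rose (1.85 ± 0.68, adjusted p = 0.0496), with 21.6% of genes called, 2.09% higher and 19.5% lower. The 3 calls were lost without a single E2C library, at -2.94 for Trp53 and -1.41 for Mdm2 without replicate 2, and at 0.80 for Cdkn1a without replicate 1. Without MII replicate 1 or 2, the calls of Mdm2 (-2.17 and -2.77) and Cdkn1a (2.09 and 1.61) were lost too. Cdkn1a also lost its call in 7 of the 10 other settings run. Trp53 was not called at FGO to MII (2.47 ± 0.94, adjusted p = 0.0534). Its value turned on the FGO library used, at 4.39 (adjusted p = 0.00671) without replicate 1 and 0.55 (0.881) without replicate 2, and it was called with a filter of 5 FPKM (adjusted p = 0.0383) and with the replicate number as a block (0.0251). These are bulk samples, in which fewer cells of a type and less RNA per cell cannot be told apart.

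**Figure D1:**
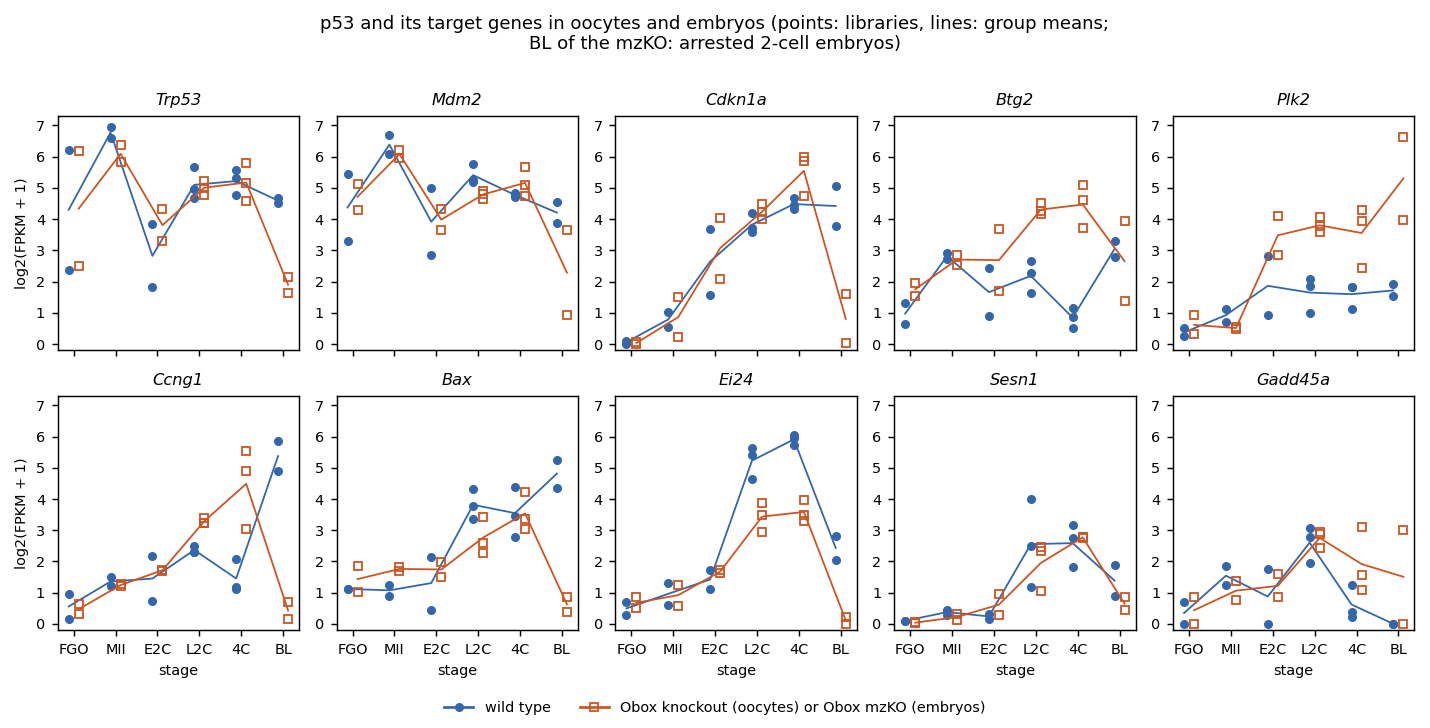
Level of each of the 10 genes as log2(FPKM + 1) on the vertical axis against stage, from full-grown oocytes (FGO) to blastocysts (BL). Points are libraries, blue circles wild type and orange squares Obox knockout oocytes or mzKO embryos, whose points at BL are arrested 2-cell embryos. Btg2, Plk2 and Ccng1 stand higher and Ei24 lower in mzKO than in wild type at the 4C time.

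Ei24, Bax and Sesn1 rose with activation of the embryonic genome. Ei24, an endoplasmic reticulum membrane protein with a role in autophagy, was at 2.31 and 1.17 FPKM at E2C and 24.2, 48.5 and 41.3 at L2C (log2 fold change 3.81 ± 0.44 (SE), adjusted p = 4.94e-07). Bax, the protein that opens pores in the outer mitochondrial membrane in apoptosis, went from 3.46 and 0.372 to 18.8, 9.29 and 12.7 (2.51 ± 0.54, adjusted p = 0.000474). Sesn1, a sestrin that restrains the growth kinase complex mTORC1, went from 0.236 and 0.127 to 14.8, 1.29 and 4.6 (2.32 ± 0.54, adjusted p = 0.00106). Each of these 3 calls held with any 1 library left out. At this step 5 of the 10 genes rose and none fell, against 37.4% of all genes called and 34.2% called higher, and the median log2 fold change was 1.61 over the 10 genes and 0.72 over all genes. The other 2 calls, Trp53 (2.27 ± 0.86, adjusted p = 0.0366) and Gadd45a, a gene induced by DNA damage and growth arrest (1.73 ± 0.65, adjusted p = 0.0374), were lost without E2C replicate 2, at 1.27 (adjusted p = 0.417) and 0.85 (0.483). Gadd45a was at 2.89, 7.45 and 5.83 FPKM at L2C and 0.168, 0.312 and 1.37 at 4C, the single call between these stages (-1.98 ± 0.59, adjusted p = 0.0238), with 13.1% of genes called and 11.3% called lower. It was lost in 4 of the 6 fits that left out a library, with adjusted p up to 0.103.

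The blastocyst was marked by Ccng1. This gene of cyclin G1, which recruits the phosphatase PP2A to MDM2, stood at 1.16, 3.22 and 1.26 FPKM at 4C and 56.7 and 28.8 at BL (log2 fold change 3.92 ± 0.54 (SE), adjusted p = 2.38e-06). Ei24 fell from 64.9, 61.5 and 51.9 to 6.11 and 3.1 (-3.48 ± 0.44, adjusted p = 6.61e-07). Btg2, an antiproliferative protein that works with the CCR4-NOT deadenylase, went from 1.2, 0.431 and 0.832 to 8.84 and 5.94 (2.20 ± 0.62, adjusted p = 0.00765). Of these 3 genes, Btg2 was not called without BL replicate 1 (1.95). Between 4C and BL, 28.3% of all genes were called, 10.5% higher and 17.7% lower. Cdkn1a, the gene of the cyclin-dependent kinase inhibitor p21, was near 0 in FGOs (0.0758 and 0.00495 FPKM) and then at 12 and 2 at E2C, 17.2, 12.1 and 10.9 at L2C, 19, 24.4 and 21 at 4C and 32.4 and 12.7 at BL. Its neighbouring stages from L2C to BL were not called apart. Plk2, a polo-like kinase of centriole duplication, stayed low at every wild-type stage (0.184 to 5.98 FPKM).

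Loss of Obox genes in the oocyte came with no called change. In OboxKO oocytes limma called 0 of the 10 genes at FGO and 0 at MII, where 0 had an unadjusted p under 0.05 at either stage and 0.0715% and 0.0572% of all genes were called. At E2C 0 genes were called in mzKO embryos (1 at an unadjusted p under 0.05, 0.4% of all genes called). That one was Plk2, at 5.98 and 0.898 FPKM in wild type and 16.3 and 6.23 in mzKO (log2 fold change 1.62 ± 0.69 (SE), adjusted p = 1), and the pairs did not overlap. It was 1 of the 10 genes without overlap, and the share of all genes is not given. Same-numbered libraries of knockout and wild type deviated together at FGO (correlation of deviations 0.621) and at E2C (0.655), not at MII (-0.316). The main fit did not pair them, so changes at FGO and E2C may have been missed. Trp53 was at 72 and 4.61 FPKM in OboxKO FGOs and 81.6 and 55.5 at MII, close to the wild-type pairs at FGO and below them at MII (adjusted p = 1).

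At the late 2-cell stage, Btg2 and Plk2 rose and Ei24 fell in mzKO embryos, while Trp53 did not differ detectably. Trp53 was at 50.1, 24.4 and 30.1 FPKM in wild type and 26.5, 36.7 and 31 in mzKO. The groups overlapped, and the interval of the log2 fold change was wide (-1.67 to 1.49, 95%). Mdm2 was at 53.1, 37.4 and 35.9 in wild type and 24.3, 27 and 29.1 in mzKO (log2 fold change -0.62 ± 0.60 (SE), adjusted p = 0.521). Every mzKO library lay below every control, but Mdm2 was not called. Btg2 was at 2.1, 5.31 and 3.79 in wild type against 16.9, 18 and 21.7 in mzKO (2.12 ± 0.55, adjusted p = 0.00796). Plk2 was at 1.01, 2.63 and 3.23 against 12.7, 10.9 and 15.6 (2.15 ± 0.56, adjusted p = 0.00791). For both, every mzKO library lay above every control. Both calls rested on the control with the lowest Btg2 and Plk2: without L2C replicate 1 of wild type the changes were 1.85 (adjusted p = 0.0574) for Btg2 and 1.83 (0.0617) for Plk2. Ei24 was at 24.2, 48.5 and 41.3 in wild type and 6.7, 13.8 and 10.1 in mzKO (-1.79 ± 0.40, adjusted p = 0.00192), with no overlap, and it was called with any 1 library left out (-2.08 to -1.55). Ccng1, at 3.97, 3.94 and 4.59 against 9.56, 8.41 and 8.45, did not overlap either but was not called (0.93 ± 0.49, adjusted p = 0.192). Cdkn1a (15, 18 and 21.2 in mzKO), Bax (5.05, 9.73 and 3.86), Sesn1 (4.46, 4.09 and 1.08) and Gadd45a (4.38, 6.74 and 6.38) overlapped with wild type and were not called. The 3 calls among 10 genes stand beside 15.5% of all genes called, 4.74% higher and 10.7% lower. The groups did not overlap for 5 of the 10 genes and for 41.3% of all genes, and the median change was 0.03 over the 10 genes and 0.01 over all.

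At the control 4-cell time Btg2, Plk2 and Ccng1 were higher and Ei24 lower in mzKO embryos than in wild-type 4-cell embryos. Btg2 was at 1.2, 0.431 and 0.832 FPKM in wild type and 12.1, 23.4 and 32.9 in mzKO (log2 fold change 3.62 ± 0.55 (SE), adjusted p = 3.32e-05). Ccng1 was at 1.16, 3.22 and 1.26 against 7.19, 45.5 and 28.7 (3.03 ± 0.49, adjusted p = 5.88e-05). Ei24 was at 64.9, 61.5 and 51.9 against 8.86, 14.8 and 10.2 (-2.32 ± 0.40, adjusted p = 0.000129). The groups did not overlap for these 3 genes, and each was called with any 1 library left out (3.32 to 4.00 for Btg2, 2.51 to 3.76 for Ccng1, -2.52 to -2.18 for Ei24). Plk2 was at 2.55, 2.57 and 1.17 against 4.43, 14.4 and 18.4 (1.96 ± 0.56, adjusted p = 0.0114). Its mzKO libraries all lay above the controls, and without mzKO replicate 3 the change was 1.60 (adjusted p = 0.0731). Cdkn1a was at 19, 24.4 and 21 against 26, 63.3 and 57.8, with no overlap and no call (1.06 ± 0.55, adjusted p = 0.15). Trp53 (34.6, 54.5 and 22.8 in mzKO), Mdm2 (25.6, 49.7 and 32.9), Bax (9.24, 17.6 and 7.26) and Sesn1 (5.94, 5.69 and 5.88) were not called, and the interval of the Trp53 change was -1.63 to 1.53. Gadd45a was at 0.168, 0.312 and 1.37 in wild type and 1.1, 1.99 and 7.57 in mzKO (1.30 ± 0.59, adjusted p = 0.0976), with overlap. Thus 3 of the 10 genes rose and 1 fell, beside 24.6% of all genes called, 14.2% higher and 10.4% lower. The groups did not overlap for 5 of the 10 genes and for 43.9% of all genes. The median change was 0.72 over the 10 genes and 0.16 over all.

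**Figure D2:**
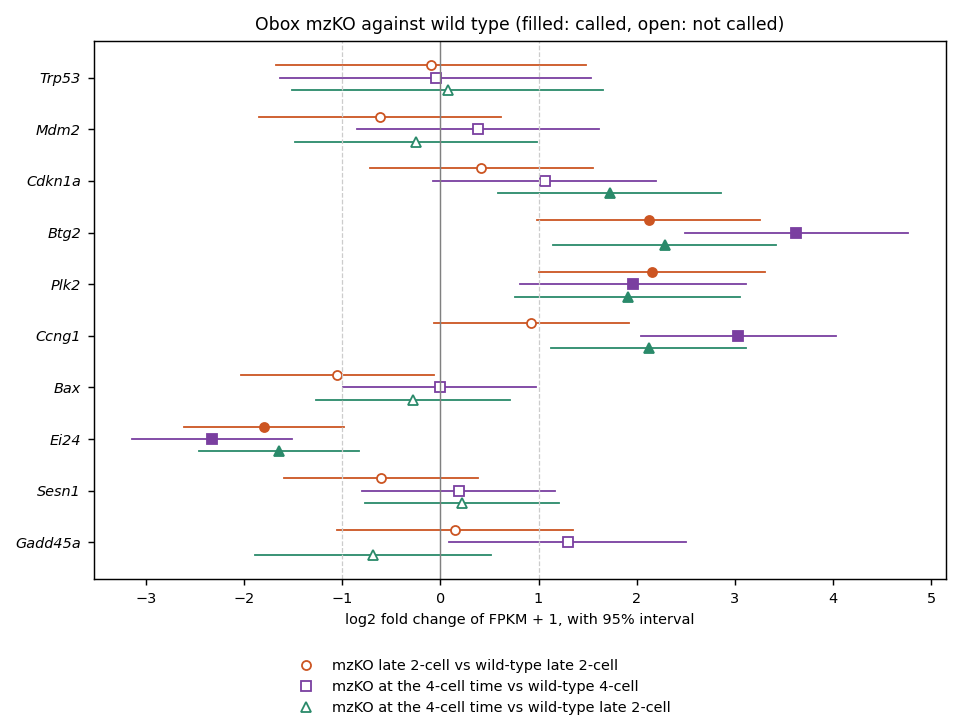
Log2 fold change on the log2(FPKM + 1) scale, horizontal axis, with its 95% interval for each of the 10 genes in mzKO against wild-type embryos at L2C, at the 4C time, and for mzKO embryos at the 4C time against wild-type L2C. Filled points are called, open points are not, and dashed lines mark changes of 1 in size. Btg2 and Plk2 lie right of 0 and Ei24 left of it in all 3 comparisons.

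Set against wild-type late 2-cell embryos instead, the mzKO embryos of the 4C time gave 5 calls of 10, beside 10.6% of all genes called, 3.03% higher and 7.61% lower. Btg2 (log2 fold change 2.28 ± 0.55 (SE), adjusted p = 0.00606), Ccng1 (2.12 ± 0.49, adjusted p = 0.00371), Plk2 (1.91 ± 0.56, adjusted p = 0.0239) and Cdkn1a (1.72 ± 0.55, adjusted p = 0.0399) rose, and Ei24 fell (-1.64 ± 0.40, adjusted p = 0.00576). Btg2, Ccng1 and Ei24 were called with any 1 library left out. Cdkn1a lost its call in 5 of 6 such fits (1.49 to 2.12, adjusted p up to 0.129) and Plk2 in 3 of 6 (adjusted p up to 0.133). This comparison shares its mzKO libraries with the one against 4C and its controls with the one at L2C, so the 3 are not independent. Whether the mzKO differences themselves changed with stage was tested as a contrast of contrasts. Of the 10 genes 0 were called by limma between E2C and L2C (1 at an unadjusted p under 0.05, 1.88% of all genes called) and 0 between L2C and 4C (1 unadjusted, 1.17% called). Those were Ei24 (-2.05 (adjusted p = 0.0901)) and Ccng1 (2.11 (adjusted p = 0.148)). The Ccng1 contrast reached 2.83 (adjusted p = 0.0138) without mzKO 4C replicate 1, the library with the lowest Ccng1 of its group. The Ei24 contrast was -2.35 (0.0485) without wild-type E2C replicate 1.

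Within mzKO embryos, Ei24 still rose from E2C to L2C, from 2.29 and 2.1 to 6.7, 13.8 and 10.1 FPKM (log2 fold change 1.76 ± 0.44 (SE), adjusted p = 0.00549). The stages did not overlap for Ei24, nor for most of the group (8 of the 10 genes without overlap), and the share of all genes is not given. Ccng1 rose from 2.33 and 2.26 to 9.56, 8.41 and 8.45 (1.57 ± 0.54, adjusted p = 0.0385). These 2 calls of 10 stand beside 19.9% of all genes called and 18% called higher. Ei24 was not called without mzKO E2C replicate 2 (1.72, adjusted p = 0.0636), and Ccng1 was lost with any 1 library left out (1.52 to 1.60, adjusted p up to 0.179). From L2C to the 4C time limma called 0 of the 10 genes (2 at an unadjusted p under 0.05, 6.12% of all genes called). The 2 were Cdkn1a (1.31 (adjusted p = 0.157)) and Ccng1 (1.20 (adjusted p = 0.137)). Without mzKO 4C replicate 1, Ccng1 was called (1.92, adjusted p = 0.0145). Other groups of transcripts moved in the same libraries. The summed level of 8 oocyte markers was 288 to 403 FPKM in wild-type and 404 to 939.8 in mzKO L2C, and 72.9 to 93.8 against 136 to 258 at the 4C time. For the 7 listed 2-cell markers the sums were 36.6 to 121 in wild type and 88.7 to 549.8 in mzKO at the 4C time. For 10 fibroblast markers they were 0.322 to 0.635 and 2.13 to 4.7, with 4 of the 10 at 0 in each group, and for 13 cumulus and granulosa markers 22.7 to 24.2 and 4.53 to 15.2, with 6 and 4 at 0. The part of these in the differences was not tested.

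In the arrested mzKO embryos of the blastocyst time Plk2 was high while most of the group was low. Plk2 stood at 97.8 and 14.9 FPKM in the 2 libraries, at 4.43, 14.4 and 18.4 in mzKO embryos of the 4C time and at 2.75 and 1.88 in wild-type blastocysts. Against wild-type blastocysts Plk2 rose (log2 fold change 3.59 ± 0.69 (SE), adjusted p = 7.59e-05), the groups did not overlap, and the call held under every alternative run. Of all genes 46.6% were called and 2.97% rose. Against the mzKO embryos of the 4C time it was called too (1.75 ± 0.63, adjusted p = 0.0163), but the groups overlapped, and the change was 0.43 (adjusted p = 0.589) without arrested replicate 1 and 1.19 (0.109) without mzKO 4C replicate 1. Ccng1 stood at 0.111 and 0.625 in the arrested embryos, Bax at 0.824 and 0.305, Cdkn1a at 0.0121 and 2.03 and Ei24 at 0.168 and 0. All 4 lay below every library of both comparison groups. Of all genes, 60.7% were called lower than in mzKO embryos of the 4C time and 43.6% lower than in wild-type blastocysts. The share of all genes without overlap is not given for these comparisons. The 2 arrested libraries correlated with each other at 0.58 on log2(FPKM + 1). Against wild-type blastocysts Ccng1 (-4.95 (adjusted p = 8.43e-08)), Bax (-4.19 (adjusted p = 1.04e-06)), Cdkn1a (-3.61 (adjusted p = 5.98e-05)), Ei24 (-2.32 (adjusted p = 0.000213)), Trp53 (-2.70 (adjusted p = 0.0192)) and Mdm2 (-1.92 (adjusted p = 0.0323)) fell, beside 43.6% of all genes. Ccng1 and Bax were lower and called under every alternative, while Cdkn1a was at -1.21 (adjusted p = 0.267) when libraries were scaled by median ratios and Ei24 at -0.90 (0.0211) with a pseudocount of 5. Trp53, at 3.46 and 2.12 in the arrested embryos, and Mdm2, at 11.5 and 0.915, changed sign with scaling: when libraries were scaled by median ratios, their changes were 0.43 and 1.06. Against mzKO embryos of the 4C time 8 of the 10 genes fell and 1, Plk2, rose, beside 61.5% of all genes called, 60.7% lower and 0.801% higher. The median change was -2.89 over the 10 genes and -1.52 over all. The high Rn45s share and low number of detected genes of these 2 libraries, given above, move with the falls. With Rn45s left out of the scaling, Ccng1, Bax, Cdkn1a and Ei24 were still called lower than in wild-type blastocysts, while Trp53 (-1.53, adjusted p = 0.202) and Mdm2 (-0.85, adjusted p = 0.396) were not. The Trp53 call was also lost in 3 of the 4 fits that left out a library (-2.79 to -2.44, adjusted p up to 0.0976), and Mdm2 was at -0.57 (adjusted p = 0.652) without arrested replicate 2 and -1.58 (0.208) without wild-type BL replicate 1.

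The single mzKO libraries labelled Obox157OE and Obox3OE, which carry blastocyst markers at 4249.9 and 2475 FPKM, held the group at levels near those of wild-type blastocysts. Ccng1 was at 57.7 and 46.8 FPKM, Bax at 47.9 and 26.3, and Btg2 at 8.73 and 5.78. The wild-type pairs were 56.7 and 28.8, 37.5 and 19.6 and 8.84 and 5.94. Plk2, high in the arrested embryos, was at 2.34 and 3.69. In the library labelled Obox4OE and arrested 2-cell, which has few detected genes as given above, Ccng1 at 5.21 and Bax at 3.61 lay between the arrested embryos and wild-type blastocysts. Its Cdkn1a, at 17.3, lay within the wild-type pair, and its Plk2, at 3.56, between the Obox157OE and Obox3OE values. With 1 library each, these values have no replicate check.

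In late 2-cell embryos lacking only the maternal Obox product, Sesn1 was the single called gene. It stood at 5.52 and 5 FPKM in wild type and 0.427 and 1.53 in mKO (log2 fold change -1.72 ± 0.43 (SE), adjusted p = 0.0455). The pairs did not overlap, but the call was lost without either control library (-1.66, adjusted p = 0.197, and -1.78, 0.259). The 1 call of 10 stands beside 12.9% of all genes called, 11.4% lower, in a fit with 2 residual degrees of freedom. The pairs did not overlap for 9 of the 10 genes and for 62.2% of all genes. The median change was -0.81 over the 10 genes and -0.48 over all genes. Summed FPKM was 184488 and 179978 in mKO against 293375 and 291113 in wild type. Btg2 was at 4.39 and 1.93 in wild type against 6.94 and 13.1 in mKO (1.41 ± 0.48, adjusted p = 0.0898), Trp53 at 34.4 and 18.3 against 6.65 and 10.9 (-1.45 ± 0.43, adjusted p = 0.0669) and Bax at 10 and 13.7 against 3.51 and 5.06 (-1.29 ± 0.38, adjusted p = 0.0639). None of these 3 overlapped, and none was called. Ei24 was at 18.1 and 18.9 in wild type and 17.9 and 5.2 in mKO, where replicate 1 lay just below the controls and replicate 2 far below. Ei24 was called without mKO replicate 1 (-1.65, adjusted p = 0.00858). In the single blastocyst libraries Ccng1 was at 26.4 FPKM in wild type and 46.4 in mKO, Cdkn1a at 5.69 and 17.6, and Ei24 at 2.89 and 12.1, with no replicate.

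Among single embryos, whose Obox-- samples list Obox3 and Obox4 at 0 and still hold maternal Obox transcripts, genotype made no called difference. Limma called 0 of 10 genes at E2C (1 at an unadjusted p under 0.05, 0.461% of all genes called) and 0 at L2C (2 unadjusted, 0.632% called). At L2C, Ccng1 was at 1.42, 1.47 and 1.59 FPKM in Obox+- and 4.5, 5.27, 7.14 and 3.37 in Obox-- (log2 fold change 1.25 ± 0.29 (SE), adjusted p = 0.063). Ei24 was at 82.3, 106 and 92.1 against 58.2, 52.9, 66.7 and 50.6 (-0.70 ± 0.24, adjusted p = 0.191). Neither overlapped between genotypes, but the share of all genes without overlap is not given for these comparisons. Ccng1 was called when libraries were scaled by median ratios (1.10, adjusted p = 0.0452). At E2C, Btg2 was at 4, 3.93 and 3.01 in Obox+- and 12, 9.83 and 5.64 in Obox-- (1.08 ± 0.32, adjusted p = 0.178), without overlap. At L2C the Btg2 values were 0.445, 0.715 and 0.836 and 0.552, 0.501, 1.32 and 0.208, which overlapped. The contrast between the stages called 0 of 10 (3 unadjusted, 0.0939% of all genes called).

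Stage separated the single embryos far more than genotype. In Obox+-, 4 of the 10 genes rose and 3 fell from E2C to L2C (49.3% of all genes called, 28% higher and 21.3% lower), and in Obox--, 3 rose and 3 fell (50.6%, 25.8% and 24.8%). Ei24 rose from 5.79, 4.97 and 4 FPKM to 82.3, 106 and 92.1 in Obox+- (log2 fold change 4.00 ± 0.26 (SE), adjusted p = 8.7e-10) and from 10.1, 5.74 and 5.24 to 58.2, 52.9, 66.7 and 50.6 in Obox-- (2.90 ± 0.24, adjusted p = 1.36e-08). Sesn1 rose in both genotypes, by 3.50 (adjusted p = 8.26e-07) and 3.03 (adjusted p = 1.73e-06), and Trp53 by 1.32 (adjusted p = 0.0013) and 1.61 (adjusted p = 0.000102). Stages did not overlap for Ei24, Sesn1 or Trp53 in either genotype, and the share of all genes without overlap is not given. Plk2 fell from 5.01, 9.77 and 9.44 to 0.732, 0.48 and 0.0831 in Obox+- (-2.64 ± 0.39, adjusted p = 1.47e-05) and from 14.6, 15.9 and 10.8 to 0.222, 0.82, 2.22 and 0 in Obox-- (-3.16 ± 0.36, adjusted p = 7.3e-07). Btg2 fell as well (-1.48 (adjusted p = 0.000594) and -2.61 (adjusted p = 5.58e-07)). The remaining calls were Cdkn1a (1.94 (adjusted p = 0.00316)) and Ccng1 (-1.03 (adjusted p = 0.00919)) in Obox+- and Bax (-1.82 (adjusted p = 0.000423)) in Obox--. Bax in Obox+- was at -0.96 (adjusted p = 0.0482), just under 1 in size. Cdkn1a in Obox-- was at 0.93 (adjusted p = 0.0936), and at 1.21 (0.0377) with Rn45s left out. Rn45s took 3.24% to 7.44% of summed FPKM at E2C and 20.1% to 24.4% at L2C. Ccng1 in Obox+- was under 1 in size with Rn45s left out (-0.88) and without E2C replicate 2 (-0.90) or 3 (-0.98). Bax values at L2C were 0.153, 0.171 and 0.458 in Obox+- and 0.0972, 0, 0 and 0 in Obox--, far below the 18.8, 9.29 and 12.7 of the wild-type L2C libraries of the main table, which was normalised separately.

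**Figure D3:**
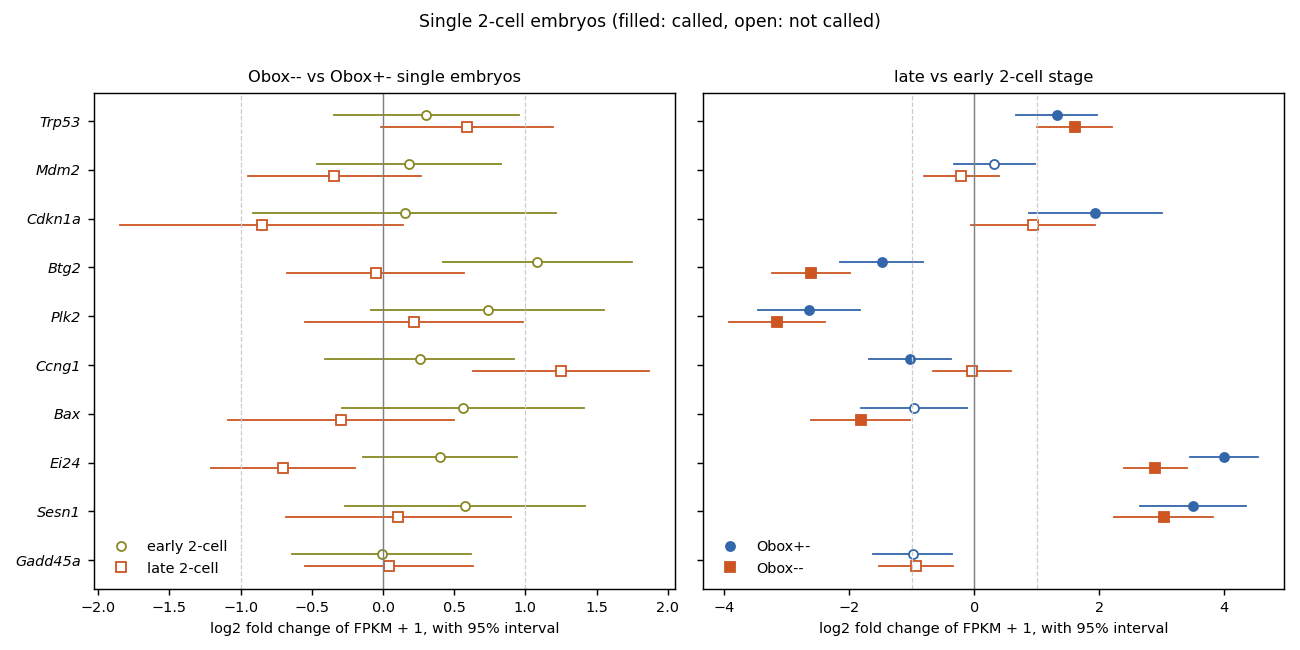
Log2 fold change on the log2(FPKM + 1) scale, horizontal axis, with 95% intervals for the 10 genes in single embryos. The left panel compares Obox-- with Obox+- at E2C and L2C and has no filled (called) point. The right panel compares L2C with E2C in each genotype, where Ei24 and Sesn1 lie far right and Plk2 far left.

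No siRNA gave a called change in the 10 genes. Same-numbered libraries deviated together for siObox4 (correlation of deviations with siCtrl 0.688) and siObox6 (0.462 to 0.538), and the main fit did not pair them. For each of the other siRNAs the lowest such correlation was 0.018 or less. The counts at an unadjusted p under 0.05 were 0 for siObox12mix, 2 for siObox5, 0 for siObox7, 0 for siObox4, 3 for siObox6 and 0 for siObox8, where limma called 0.0233%, 0.0233%, 0.00776%, 0.00776%, 0.0699% and 0% of all genes. In parthenotes Cdkn1a was at 3.25, 2.43 and 2.73 FPKM with siCtrl and 8.43 and 11.1 with siObox5 (log2 fold change 1.49 ± 0.49 (SE), adjusted p = 1). With siObox7 it was at 5.02 and 6.68 and with siObox12mix at 4.83 and 4.71. The libraries of all 3 siRNAs lay above the controls, which they share. At 4C, Cdkn1a was at 68.8, 55.8 and 32.5 with siCtrl and 120.5 and 138 with siObox6 (1.35 ± 0.49, adjusted p = 0.805). Btg2 was at 1.17, 1.43 and 0.939 against 5.87 and 2.78 and Ccng1 at 6.05, 4.93 and 2.41 against 14.2 and 11.2. For these 3 genes the siObox6 pair lay above all controls. Ei24 with siObox8 was at 89.2 and 51.3 against 13.2, 46.8 and 36 in controls (1.23 ± 0.69, adjusted p = 1), again with no overlap. The groups did not overlap for 2 (siObox12mix), 3 (siObox5), 2 (siObox7), 1 (siObox4), 5 (siObox6) and 3 (siObox8) of the 10 genes, and for 15.6%, 12.9%, 10.1%, 17%, 12.1% and 7.92% of all genes.

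**Figure D4:**
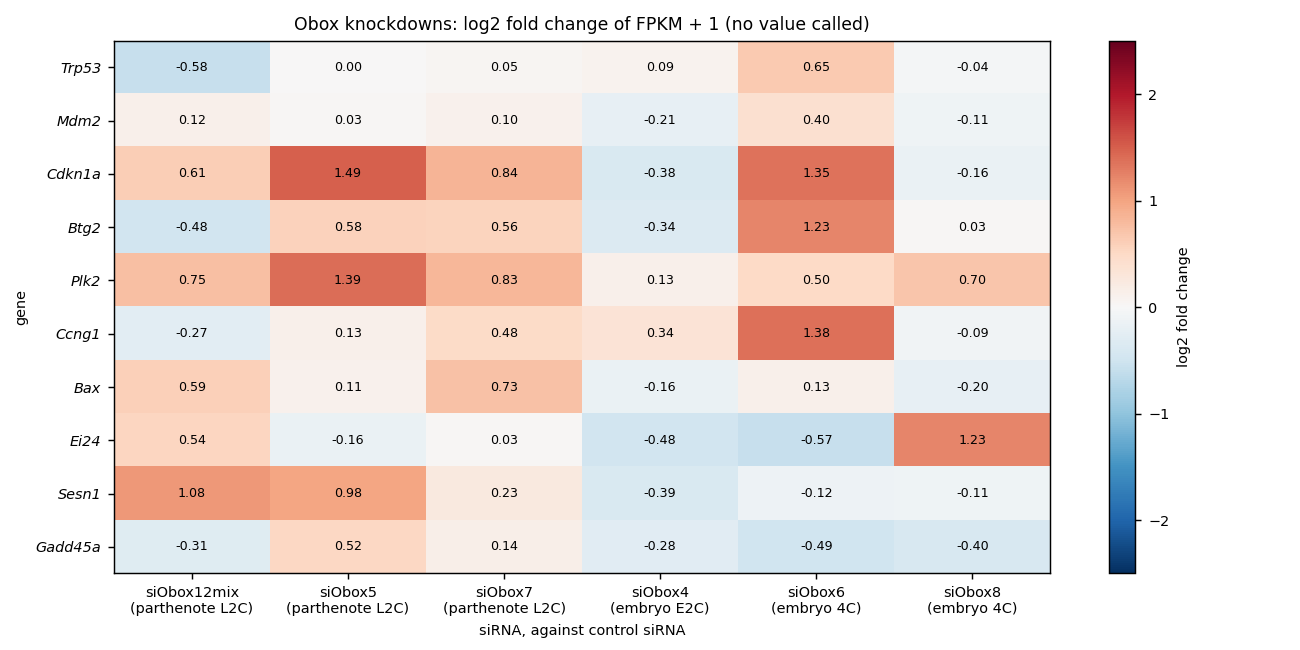
Heat map of the log2 fold change on the log2(FPKM + 1) scale, by colour, for the 10 genes (vertical axis) and 6 siRNAs against their siCtrl groups (horizontal axis). No cell is called, and the values of Cdkn1a are 1.49 with siObox5 and 1.35 with siObox6.

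In embryonic stem cells Ei24, which fell in mzKO embryos, rose with Obox3 and with Obox5. Ei24 stood at 2.47, 2.37, 6.17, 10.3 and 4.04 FPKM with GFP, 19.1, 16.4, 26.5 and 28.3 with Obox3 and 18.6, 10.5, 23.9 and 38.6 with Obox5. Every Obox library lay above every GFP library, by log2 fold change 2.08 ± 0.42 (SE), adjusted p = 0.0042, for Obox3 and 2.00 ± 0.42, adjusted p = 0.00919, for Obox5. The Obox3 call held with any 1 library left out (1.91 to 2.35). The Obox5 call was lost without Obox5 replicate 4 (1.71, adjusted p = 0.0658). It was 1 call of 10 in each, beside 3.02% of all genes called with Obox3 (2.82% higher) and 2.18% with Obox5 (2.08% higher). Between Obox3 and Obox5 limma called 0 of the 10 genes (0 at an unadjusted p under 0.05, 0.107% of all genes called), and the Ei24 difference of 0.08 had a 95% interval of -0.84 to 1.01. Mdm2 was at 16.7, 30.2, 74.7, 25.4 and 27 with GFP, 20.9, 52.4, 86.3 and 35.7 with Obox3 and 25.1, 98.3, 111 and 67.2 with Obox5, and the groups overlapped. Same-numbered libraries deviated together in these groups, and the main fit did not pair them. By number, Mdm2 was higher with Obox3 and with Obox5 than with GFP in every pair. Its Obox5 change was not called (1.08 ± 0.50, adjusted p = 0.444), but with the replicate number as a block it was (1.04, adjusted p = 0.00566). Plk2 (1.11 (adjusted p = 0.27)), Ccng1 (0.84 (adjusted p = 0.417)) and Btg2 (0.89 (adjusted p = 0.516)) were not called with Obox5. By number, Plk2 and Ccng1 were higher with Obox5 than with GFP in every pair, and Btg2 in all but replicate 3. Trp53 was abundant, at 132, 237, 245, 272 and 102 with GFP, 104, 173, 162 and 125 with Obox3 and 119.9, 175, 208 and 357 with Obox5, and overlapped in all 3 groups. By number, Trp53 was lower with Obox3 than with GFP in every pair, and with Obox5 in all but replicate 4. Cdkn1a, at 34.6, 46.5, 75.6, 87.6 and 49.2 with GFP, overlapped too. Its pairs were all lower with Obox3 than with GFP, and went both ways with Obox5. The 10 fibroblast markers summed to 13 to 30.6 FPKM in the GFP libraries, beside 2778 to 7849.7 for 8 stem cell markers.

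**Figure D5:**
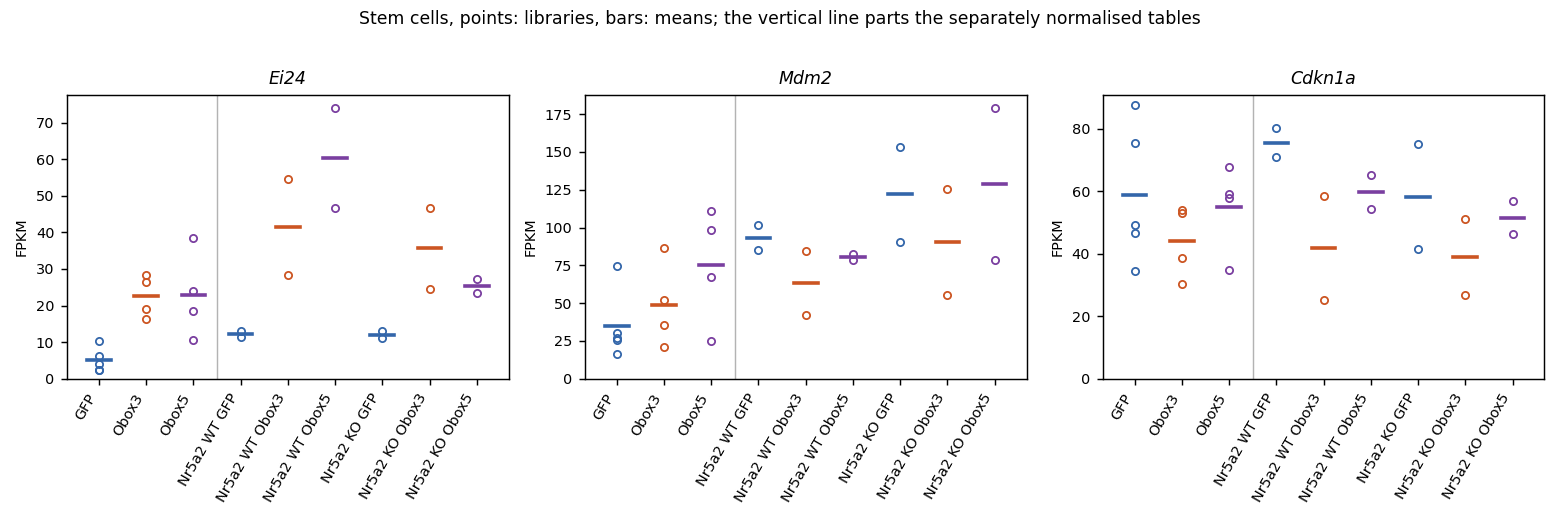
FPKM of Ei24, Mdm2 and Cdkn1a (vertical axes) in the 9 stem cell groups (horizontal axis), one point per library. The vertical line separates the 2 tables, which were normalised separately. Ei24 in the Obox3 and Obox5 groups lies above the GFP group of the same table.

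In the second stem cell table Ei24 was again higher with Obox than with GFP, in both Nr5a2 genotypes. Nr5a2, an orphan nuclear receptor expressed in the early embryo, was at 0 to 2e-06 FPKM in the knockout libraries. Ei24 was at 13.1 and 11.3 FPKM in wild-type cells with GFP, 28.2 and 54.5 with Obox3 and 46.8 and 73.9 with Obox5, and in knockout cells 13 and 11.1, 46.7 and 24.6 and 23.3 and 27.3. No Obox library overlapped with GFP of its genotype for Ei24. Lack of overlap was not particular to Ei24. In wild-type cells it held for 9 of the 10 genes with Obox3 and 5 with Obox5. In knockout cells it held for 4 and 2. The share of all genes without overlap is not given. Only Obox5 in wild-type cells was called (log2 fold change 2.18 ± 0.46 (SE), adjusted p = 0.0272), 1 of 10 genes beside 0.663% of all genes (0.646% higher), and the call was lost with any 1 library left out (1.86 to 2.51, adjusted p up to 0.404). The others were 1.61 (adjusted p = 0.112) for Obox3 in wild type, 1.42 (adjusted p = 0.11) for Obox3 in the knockout and 1.01 (adjusted p = 0.754) for Obox5 in the knockout, and limma called 0 of 10 genes in these (4, 3 and 2 at an unadjusted p under 0.05, beside 0.935%, 3.56% and 0.935% of all genes called). Whether the Ei24 difference depends on Nr5a2 was tested by contrasts of contrasts, at -0.19 (adjusted p = 0.903) for Obox3 and -1.17 (adjusted p = 1) for Obox5. With GFP alone, knockout against wild type gave 0 calls of 10 (1 unadjusted, 2.04% of all genes called), the 1 being Btg2 at 20.2 and 15.4 FPKM in wild type and 42.2 and 44.3 in the knockout (1.25 ± 0.46, adjusted p = 0.218). Gadd45a with Obox3 in wild-type cells was at 3.18 and 3.69 against 14.8 and 11.4 with GFP (-1.66 ± 0.48, adjusted p = 0.116).

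In wild-type embryos that overexpressed 1 Obox gene, with 1 library each and no test, Ei24 at L2C was at 53.3, 14.8, 49.1, 39.7 and 57.8 FPKM after water, Obox1, Obox2, Obox3 and Obox5, so it was not above the water library except with Obox5 and was lowest with Obox1. At BL it was at 6.59, 12.3, 6.68, 7.07 and 6.41 in the same order. Ccng1 was at 1.91 to 3.27 in the 5 L2C libraries and at 67.9 to 82.8 at BL. Bax ranged from 3.56 to 7.81 at L2C and from 42.8 to 129 at BL. The blastocyst libraries were thus the higher for both, as in the uninjected wild type. The Obox1 blastocyst library, whose markers go against its label in part, held the highest Ei24 and the lowest Bax of the 5 BL libraries. Without it Bax at BL ranged from 82.7 to 129 and Ei24 from 6.41 to 7.07.

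Other genes of the p53 pathway were called in both directions in mzKO embryos, in shares near or below those of all genes. Of 16 regulators of p53 (such as its kinases and ubiquitin ligases), 15 passed the filter on low values. Of these 0 rose and 1 fell at L2C, and 1 rose and 2 fell at the 4C time. Of 32 other targets, 28 passed, of which 2 rose and 3 fell at L2C and 5 rose and 3 fell at the 4C time. Of all genes, 15.5% were called at L2C and 24.6% at the 4C time. Chek2, a DNA damage kinase that phosphorylates p53, fell at L2C to 7.91 ± 2.03 against 37.5 ± 13.5 FPKM (SD, n = 3 and 3; log2 fold change -2.08, adjusted p = 0.00156) in wild type and at the 4C time to 12.7 ± 6.89 against 44.2 ± 14.9 FPKM (SD, n = 3 and 3; log2 fold change -1.80, adjusted p = 0.00456). Gls2, a mitochondrial glutaminase, fell to 0.48 ± 0.415 against 15.1 ± 13.7 FPKM (SD, n = 3 and 3; log2 fold change -3.15, adjusted p = 1.45e-05) in wild type at L2C and to 2.48 ± 2.2 against 20.1 ± 0.832 FPKM (SD, n = 3 and 3; log2 fold change -2.81, adjusted p = 6.81e-05) at the 4C time. At L2C, Bid, which activates BAX in apoptosis, fell to 4.32 ± 2.51 against 21.3 ± 9.13 FPKM (SD, n = 3 and 3; log2 fold change -2.11, adjusted p = 0.00127), and Apaf1, the core of the apoptosome, to 1.79 ± 0.486 against 6.91 ± 1.95 FPKM (SD, n = 3 and 3; log2 fold change -1.49, adjusted p = 0.00817). At the 4C time Hipk2, a kinase of p53, rose to 8.51 ± 2.85 against 1.17 ± 0.35 FPKM (SD, n = 3 and 3; log2 fold change 2.10, adjusted p = 0.00407), Perp, a membrane protein linked to p53-dependent death, to 6.83 ± 4.17 against 0.668 ± 0.49 FPKM (SD, n = 3 and 3; log2 fold change 2.14, adjusted p = 0.00106) and Trp53inp1 to 50.1 ± 12.6 against 11.7 ± 2.02 FPKM (SD, n = 3 and 3; log2 fold change 1.99, adjusted p = 0.00204). Rrm2b, a ribonucleotide reductase subunit, rose to 40.2 ± 13.4 against 11.6 ± 4.21 FPKM (SD, n = 3 and 3; log2 fold change 1.72, adjusted p = 0.00566). Rpl5, a ribosomal protein that can bind MDM2, fell to 55.6 ± 29.2 against 217 ± 125 FPKM (SD, n = 3 and 3; log2 fold change -1.87, adjusted p = 0.0231). Aen, a nuclease of apoptosis, fell to 6.27 ± 1.87 against 19.6 ± 7.2 FPKM (SD, n = 3 and 3; log2 fold change -1.47, adjusted p = 0.0139) and 9630033F20Rik, the older symbol of Tigar, to 19.3 ± 8.81 against 53.1 ± 22.6 FPKM (SD, n = 3 and 3; log2 fold change -1.42, adjusted p = 0.0242). The median change of the regulators was 0.22 at L2C and 0.42 at the 4C time, and that of the other targets -0.16 and 0.12, beside 0.01 and 0.16 over all genes.

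Relatives of the 10 genes by gene family, whose own regulation by p53 was not assessed, were listed for comparison, 14 in all with 13 tested. At L2C 4 rose and 0 fell in mzKO embryos, and at the 4C time 6 rose and 1 fell. Of all genes, 4.74% rose and 10.7% fell at L2C, and 14.2% and 10.4% at the 4C time. The median change of the relatives was 0.99 at L2C and 1.04 at the 4C time, beside 0.01 and 0.16 over all genes. Cdkn1c, the gene of the kinase inhibitor p57, was at 18.6 ± 4.17 against 5.44 ± 1.18 FPKM (SD, n = 3 and 3; log2 fold change 1.60, adjusted p = 0.0125) in wild type at L2C, and at 34.9 ± 16.1 against 4.19 ± 1.62 FPKM (SD, n = 3 and 3; log2 fold change 2.75, adjusted p = 6.93e-05) at the 4C time. Btg4, a maternal relative of Btg2 that helps clear maternal RNA, was at 917 ± 204 against 377 ± 164 FPKM (SD, n = 3 and 3; log2 fold change 1.37, adjusted p = 0.0477) in wild type at L2C and at 162 ± 50.6 against 30.7 ± 5.19 FPKM (SD, n = 3 and 3; log2 fold change 2.33, adjusted p = 0.00087) at the 4C time. Gadd45g was at 5.56 ± 4.34 against 0.844 ± 0.528 FPKM (SD, n = 3 and 3; log2 fold change 1.62, adjusted p = 0.0432) in wild type at L2C and at 8.87 ± 5.25 against 0.154 ± 0.266 FPKM (SD, n = 3 and 3; log2 fold change 2.94, adjusted p = 0.000449) at the 4C time. Gadd45b was at 33.5 ± 2.85 against 6.13 ± 4.4 FPKM (SD, n = 3 and 3; log2 fold change 2.48, adjusted p = 0.000796) at the 4C time, and Sesn3, a sestrin, at 10.3 ± 1.21 against 4.41 ± 0.7 FPKM (SD, n = 3 and 3; log2 fold change 1.06, adjusted p = 0.0418) at L2C. Plk1, the mitotic polo-like kinase, was the relative that fell at the 4C time (11.5 ± 5.32 against 66.4 ± 30.2 FPKM (SD, n = 3 and 3; log2 fold change -2.44, adjusted p = 0.00226) in wild type). In knockdowns no gene of the regulators, other targets or relatives was called.

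Levels over the 12 replicated groups of the main table were compared between genes by the Pearson correlation of group means of log2(FPKM + 1), as a description with no test, over groups that share libraries, scaling and the 2 arrested libraries. Among 8720 genes with a group mean of at least 5 FPKM, the 3 most like Trp53 were Ldb1 (0.988), Tollip (0.978) and Pitrm1 (0.977), the 3 most like Cdkn1a were Dck (0.968), Eif1a (0.964) and Hist1h1a (0.961), and the 3 most like Btg2 were Peg3 (0.902), Ubqln2 (0.894) and Prkx (0.887). Within the 10 genes Trp53 ran closest to Mdm2 (0.955) and opposite to Plk2 (-0.542), while Ei24 ran with Sesn1 (0.918) and Ccng1 with Bax (0.830). Some limits of annotation touch these values. In the RefSeq annotation Ei24 overlaps Gm26787 and Gadd45a overlaps E230016M11Rik, and a Trp53 pseudogene exists. Whether counting used strand is not given in the sources used here, so reads of such partners cannot be told apart.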

How the data were processed

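RNA was sequenced by Smart-seq2, per the labels' protocols. The values are FPKM in 7 tables, computed and deposited by the authors. Per the submitters' processing notes the genome build was mm9 and the tools included StringTie 2.1.2, HISAT2 2.2.1 and Trim Galore 0.6.6, with Bowtie2 2.3.5, Picard and deepTools 3.3.1 listed too, in no stated role. Read counts are not part of these tables, so the depth per library is unknown and no counting interval was computed. Summed FPKM ran from 37752 to 535770 per library, genes at 1 FPKM or more from 2167 to 10583, and the share of Rn45s from 0.114% to 71.5%. An exact 0 can be a failed estimate, so such genes are called listed at 0.

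Each table holds 24143 lines, of which 27 with names turned into dates were left out, and lines with the same name were summed. Group and replicate were taken from sample titles. On log2(FPKM + 1), limma 3.58.1 (R 4.3.3, and data.table, version 1.17.8) was fitted to all replicated groups of a table, with trended, robust empirical Bayes variances, for genes at 1 FPKM or more in at least 2 fitted libraries. The filter left 13989 (main table), 10341 (mKO), 11718 (single embryos), 12881 (knockdown), 11186 (stem cells) and 11765 (Nr5a2) genes, and all 10 members passed it in each of the 6 tables tested. Residual degrees of freedom were 16, 2, 9, 11, 10 and 6. Benjamini-Hochberg adjustment ran over all genes tested, tests were two-sided, and a gene was called at an adjusted p under 0.05 and a log2 fold change of at least 1 in size, which understates changes of low genes. In all, 34 pairs of groups were compared, and 5 contrasts of contrasts were tested. Where the share of all genes without overlap is not given, a lack of overlap between groups is a description only. No identical libraries were found. The fit was run on simulated data with known changes, whose outcome is not given here. Noise was drawn for each gene on its own, so shifts of a whole library were not part of that check. Figures were drawn with matplotlib 3.10.9 in Python 3.11.15.

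The members, lists and tests were chosen with earlier results of these data known. All 10 members are named. Of the other lists, called genes with a mean of at least 5 FPKM in the higher group were named, at most 4 each way per list, in mzKO against wild type at L2C and at 4C. For the other comparisons only examples of these are given, chosen after their values were seen. In the table with GFP, Obox3 and Obox5 in stem cells, same-numbered libraries deviated together in every pair (correlations of deviations of 0.276 to 0.674 for Obox3 and 0.414 to 0.637 for Obox5, each with GFP, and 0.213 to 0.667 for Obox3 with Obox5), so the numbers were taken to pair them, from the data and not from a label. Not every Obox3 library deviated most closely with its own number, either among the GFP or among the Obox5 libraries, so this pairing is less sure for Obox3. Alternatives were the pseudocount, the filter, the scaling, leaving out Rn45s, plain variances, fitting only the groups compared, a replicate block and leaving out each of 90 libraries in turn. Fits without the arrested mzKO libraries were chosen after seeing the data.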

Additional observations from a re-analysis of the deposited data

Results flagged for a closer look

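In groups of 4 or 5 libraries, 4 values of the 10 genes lay far from the rest of their group by Dixon's criterion. Chance flags about 1 in 20 independent sets of values. Each gene was tested in each group, 40 sets in all, and these share libraries, so they are not independent. In stem cells with GFP, replicate 3 had Mdm2 at 74.7 FPKM, where the others were at 16.7, 30.2, 25.4 and 27, and Ccng1 at 78.9, where the others were at 29.9, 29.4, 36.4 and 38.3. It is 1 library for both genes. In Obox-- late 2-cell embryos, Bax was at 0.0972 FPKM in replicate 1 and Gadd45a at 0.116 in replicate 2, and both genes were listed at 0 in the other 3 libraries. With the others at 0, the criterion flags any value above 0, so these flags carry no information on size.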

How the results depend on the processing

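Of 61 calls of the 10 genes, 36 held with any 1 library left out and 27 under every alternative. Below are the numbers of the 10 genes called where a setting moved them by more than 1.5 times, or from or to 0, each after the main count in parentheses. The cause was not tested. Median ratio scaling shifted the median change of all genes from 0.72 to 0.14 (L2C against E2C), from 0.46 to 0.12 (the same in mzKO), from -1.52 to -0.61 (arrested mzKO against mzKO at 4C), from -0.95 to 0 (arrested mzKO against wild-type BL) and from -0.48 to 0.076 (mKO). The depth is unknown, so what it limits could not be measured.

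From FGO to MII (2 genes called), 1 was called with pseudocounts of 0.1 or 5 and with plain variances, and 0 with no filter or median ratio scaling. From MII to E2C (3), 1 was called when only the groups compared were fitted. From E2C to L2C (5), 3 were called with a pseudocount of 5, no filter or median ratio scaling. From L2C to 4C (1), 0 were called with pseudocounts of 0.1 or 5, no filter, Rn45s left out or median ratio scaling, and 2 when only the groups compared were fitted.

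For mzKO at 4C against wild-type L2C (5), 2 were called with a pseudocount of 0.1, and 3 with no filter or only the groups compared. For mzKO from E2C to L2C (2), 1 was called with no filter or Rn45s left out, 0 with median ratio scaling, 5 with only the groups compared and 4 with the arrested libraries left out of the fit, a choice made after seeing the data. For arrested mzKO against mzKO at 4C (9), 5 were called with median ratio scaling, where Btg2 and Gadd45a reversed (0.78 and 0.65). Gadd45a also reversed with Rn45s left out (0.048), without arrested replicate 2 (1.10, the extremes with 1 library left out being -1.92 and 1.10) and without mzKO 4C replicate 3 (0.18). Against wild-type BL (7), 4 were called with a pseudocount of 5. Trp53, Mdm2 and Btg2 reversed with median ratio scaling (0.43, 1.06 and 2.65), and Btg2 with Rn45s left out (0.79) and without arrested replicate 2 (0.88, the extremes being -1.67 and 0.88). The mzKO contrast of L2C with E2C (0) gave 1 with a pseudocount of 5.

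For mKO (1), 0 were called with pseudocounts of 0.1 or 5, no filter or median ratio scaling, and 4 with a filter of 5 FPKM. Median ratio scaling gave 1 for Obox-- against Obox+- at L2C (0), and among Nr5a2 cells it gave 1 for the knockout with GFP (0), 1 for Obox3 in wild type (0) and 2 for Obox3 in the knockout (0). For Obox+- from E2C to L2C (7), 4 were called with a pseudocount of 5. For Obox5 in Nr5a2 wild type (1), 0 were called with no filter or only the groups compared.

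With 1 library left out, counts ran from 0 to 2 (FGO to MII), 1 to 2 (MII to E2C), 3 to 8 (E2C to L2C), 0 to 1 (L2C to 4C), 2 to 4 (4C to BL), 1 to 3 (mzKO at L2C), 3 to 4 (mzKO at 4C against wild type), 3 to 5 (mzKO at 4C against wild-type L2C), 0 to 3 (mzKO from E2C to L2C), 0 to 1 (mzKO from L2C to 4C, and both mzKO contrasts), 7 to 9 (arrested mzKO against mzKO at 4C), 5 to 7 (against wild-type BL), 0 to 4 (mKO), 6 to 8 and 6 to 7 (Obox+- and Obox-- from E2C to L2C), 0 to 1 (Obox5 in stem cells) and 0 to 0 (Obox5 in Nr5a2 wild type).

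With the replicate number as a block, 2 genes were called for Obox5 in stem cells (1, with Mdm2 added), 3 from FGO to MII (2, with Trp53 added), 2 for Obox3 in Nr5a2 wild type (0) and 1 for Obox3 in the Nr5a2 knockout (0). Outside the first stem cell table, the numbers were not taken to pair libraries. Same-numbered libraries still deviated together in some comparisons with only 2 shared numbers. Correlations of deviations were 0.621 for OboxKO at FGO and 0.655 for mzKO at E2C, each with wild type. With siCtrl they were 0.688 for siObox4 and 0.462 to 0.538 for siObox6. Others ran lower or the other way, as OboxKO at MII (-0.316). A shared replicate effect was thus left in these main fits, which can hide changes. Each called 0 of the genes, as did every alternative run. For mzKO at 4C against wild type, the lowest correlation of deviations was 0.097.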

Other observations

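The wider p53 pathway in wild type moved with the stages as well. Of 15 regulators and 28 other targets tested, 5 and 8 fell from MII to E2C and 0 and 0 rose, and 4 and 11 rose from E2C to L2C and 0 and 0 fell. Of all genes, 19.5% fell in the first step and 34.2% rose in the second. Ercc5, a DNA repair nuclease, fell from 7.4 ± 1.17 to 0.174 ± 0.0785 FPKM (SD; log2 fold change -2.83, adjusted p = 1.87e-06), with n = 2 in each group. Trp53bp1, a DNA break response protein that binds p53, fell from 40.4 ± 4.43 to 4.67 ± 3.72 FPKM (SD; log2 fold change -3.04, adjusted p = 0.000673), also with n = 2 and 2. From E2C to L2C (n = 2 and 3), Chek2 rose from 2.29 ± 2.05 to 37.5 ± 13.5 FPKM (SD; log2 fold change 3.65, adjusted p = 3.29e-06) and Gls2 rose from 0.321 ± 0.401 to 15.1 ± 13.7 FPKM (SD; log2 fold change 3.31, adjusted p = 1.17e-05), both of which fell in mzKO embryos at L2C. Between 4C and BL (n = 3 and 2) 0 regulators rose and 5 fell, and 6 other targets rose and 5 fell, where 10.5% of all genes rose and 17.7% fell. Perp rose from 0.668 ± 0.49 to 83.3 ± 45.8 FPKM (SD; log2 fold change 5.59, adjusted p = 1.33e-09). Phlda3, an inhibitor of AKT signalling, rose from 0.523 ± 0.746 to 16.2 ± 0.798 FPKM (SD; log2 fold change 3.60, adjusted p = 2.47e-08). Mdm4, a relative of Mdm2 that binds p53, fell from 82.5 ± 18.2 to 4.74 ± 3.02 FPKM (SD; log2 fold change -3.95, adjusted p = 1.23e-06).

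In the single late 2-cell libraries with siCtrl and siObox3, Ei24 was at 5.66 and 4.74 FPKM, Cdkn1a at 26.5 and 12.5, and Btg2 at 10.1 and 7.65, with no replicate. In stem cells, Bok, a relative of Bax, was the single gene called among the 13 tested of 14 relatives of the 10 genes, with Obox3 (log2 fold change 1.54, adjusted p = 0.0315) and with Obox5 (2.13, adjusted p = 0.00305).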
